A study of Bos taurus with 30 samples.

Results

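The response of bovine endometrial epithelial cells to a higher insulin dose was measured by RNA sequencing of 6 of the 30 libraries of the series, namely 3 replicates exposed to 10 ng/mL of insulin and 3 replicates exposed to 1 ng/mL. The libraries were chosen by their labels alone, and libraries with the same replicate number were compared as pairs. Both groups were primary cells of *Bos taurus* grown under flow in a microfluidic device, with epithelial cells in the upper chamber and stromal cells on the opposite side of a porous membrane in the lower chamber. According to the methods of the study, all insulin groups had medium with glucose at a level the authors call physiologic. The flow rate and the time of exposure were also the same. The cells came from uteri of nonpregnant cows that were judged to be early in the luteal phase from the look of the corpus luteum, so the stage was not set by a known estrus. Vehicle libraries (acetic acid in phosphate-buffered saline, n = 3) of the same experiment are given beside the doses as values, and the corresponding stromal libraries were used only to test whether the change differed between cell types. The labels call the replicates biological but do not say whether a replicate number stands for 1 animal. With the replicate number as a block, the p-values measure the spread of the changes within these pairs.

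Insulin acts through its own receptor (INSR) and, at higher levels, through the receptor of insulin-like growth factor 1 (IGF1R). Both pass the signal to insulin receptor substrates, and from there to the PI3K-AKT-mTOR and RAS-ERK kinase pathways, which control glucose and lipid metabolism, protein synthesis, and growth. The endometrial epithelium secretes much of the fluid that surrounds the early embryo, and insulin-like growth factor binding proteins (IGFBPs) set how much growth factor is free to act in the uterus.

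The epithelial label held in the marker genes. All 30 epithelial markers, among them KRT18, CDH1, and EPCAM, were at 1 CPM (counts scaled to the library total after TMM normalization) or more in all 6 libraries. Their summed level was 10574 to 12460 CPM at 1 ng/mL and 10087 to 11864 CPM at 10 ng/mL. Stromal markers were also present, with 23 of 30 at 1 CPM or more in all 6 libraries and a sum of 1505 to 4533 CPM at 1 ng/mL and 1505 to 4424 CPM at 10 ng/mL. The decorin gene DCN, for example, had 29.5, 10.5, and 76.9 CPM in replicates 1, 2, and 3 at 1 ng/mL and 20.5, 11.1, and 65.4 CPM at 10 ng/mL. A library held 10055884 to 11388528 counted reads at 1 ng/mL and 8826470 to 9528257 at 10 ng/mL, and the higher dose had the lower total in each pair. Where no read was counted, up to 3 reads remain possible from counting error alone, equal to 0.34 CPM in the smallest library.

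No gene passed the test between 10 and 1 ng/mL of insulin in epithelial cells after adjustment. Of 13261 genes tested, 0 (0%) had an adjusted p under 0.05 with a log2 fold change beyond 0.1 by the quasi-likelihood test of edgeR after Benjamini-Hochberg correction, and the smallest adjusted p was 0.263. At an unadjusted p under 0.05 there were 593 genes (4.47%), of which 282 (2.13%) were higher and 311 (2.35%) were lower at 10 ng/mL. Where no gene changes, a share of about 0.05 of the genes tested is expected under this threshold. DESeq2 gave 0 genes after adjustment and 37 at an unadjusted p under 0.05. With no filter on low counts, edgeR called 30 genes, among them IGFBP3, TXNIP, TFRC, CEBPB, and MX2, all of which had also been tested with the filter. Leaving out 1 replicate number gave 32, 5, and 14 calls without replicates 1, 2, and 3, but of the 48 genes concerned 3 were called in 2 of these fits and 0 in all 3. The fold changes were small, since among the 8629 genes with a mean of at least 10 CPM the median absolute log2 fold change was 0.05 and 95% were below 0.18. The median 95% confidence interval of these genes extended 0.16 to either side on the log2 scale, before adjustment. Replicate number took 86.7% of the variance between the 6 libraries, compared with 4.45% for the dose and 8.88% for the rest. These shares were not scaled by degrees of freedom, of which the dose had fewer than the rest. The 4.45% thus does not by itself show an effect of the dose. The genes described from here on are thus given as values and directions, and the 24 genes with the smallest p are a ranking and not a set of responses. These 24 were taken only from genes with the same direction in 3 of 3 pairs, so for them that agreement was a condition of the choice.

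**Figure D1:**
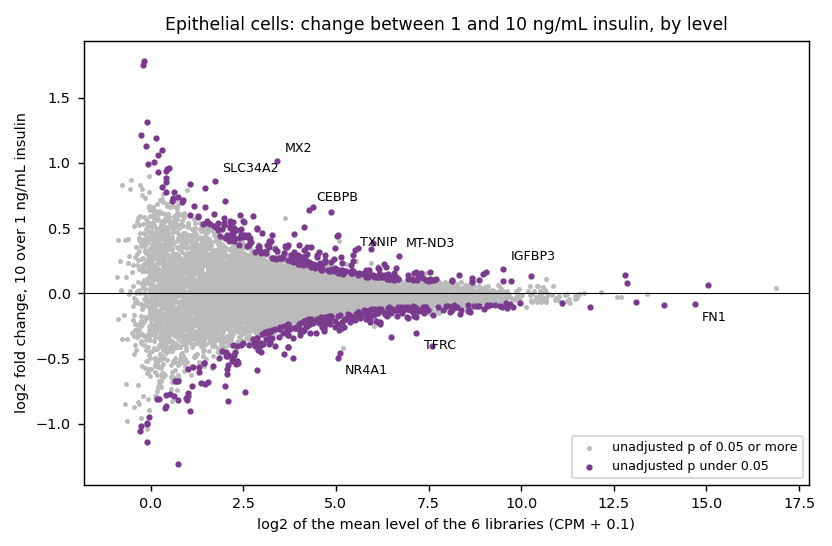
Change of each gene tested in epithelial cells (y axis, log2 fold change of 10 over 1 ng/mL of insulin) against its mean level in the 6 libraries (x axis, log2 of CPM + 0.1). Each point is 1 of 13261 genes, and the 593 purple points, with an unadjusted p under 0.05, lie on both sides of 0 at every level, while 0 genes passed the adjusted threshold.

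IGFBP3 (ENSBTAG00000003994), which codes for a main carrier of insulin-like growth factors, ranked first among the protein-coding genes. In replicates 1, 2, and 3 it had 397, 1127, and 541 CPM at 1 ng/mL and 426, 1249, and 668 CPM at 10 ng/mL, beside 399, 1160, and 453 CPM with vehicle. The 2 dose groups overlapped widely, because replicate 2 was far above the others at both doses, yet the level was higher at 10 ng/mL in 3 of 3 pairs. Its log2 fold change was 0.19 (SE 0.041, 95% interval 0.10 to 0.28), with a p of 0.00036 and an adjusted p of 0.801 by edgeR's quasi-likelihood test. Without replicate 1 the log2 fold change was 0.23 and the adjusted p 0.00325, and without replicates 2 or 3 the gene was not called.

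The other binding protein genes had smaller differences or differences in the opposite direction. IGFBP5 (ENSBTAG00000054218), coding for a binding protein that also attaches to the extracellular matrix, was nearly level, with 47.3, 40.8, and 48.7 CPM at 1 ng/mL and 48.3, 41.8, and 50.7 CPM at 10 ng/mL and a log2 fold change of 0.05 (95% interval -0.09 to 0.18). IGFBP6, whose product prefers insulin-like growth factor 2, had 178, 299, and 200 CPM at 1 ng/mL and 168, 275, and 195 CPM at 10 ng/mL. It was lower at 10 ng/mL in 3 of 3 pairs, with a log2 fold change of -0.08 (SE 0.042), and the groups overlapped. IGFBP7 was also lower in 3 of 3 pairs, at 33.4, 15.6, and 41.9 CPM and then 30.0, 13.0, and 38.5 CPM, with a log2 fold change of -0.16 (SE 0.079). IGFBP2 (-0.03) and IGFBP4 (-0.14) went in different directions among the pairs. IGFBP1, a well-known insulin-repressed gene of liver and decidua, had 1 to 5 counts in each library and was too low to test. Of the 10 tested genes of the list of IGFBPs and their regulators, 1 was higher and 0 were lower at an unadjusted p under 0.05, and the median log2 fold change was -0.01, against -0.00484 over all genes tested.

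Receptors and adaptors of the insulin pathway were at similar levels at both doses. INSR had 51.0, 35.3, and 46.0 CPM at 1 ng/mL and 47.4, 33.5, and 46.4 CPM at 10 ng/mL, with a log2 fold change of -0.05 (SE 0.066). IGF1R had 204, 169, and 190 CPM at the lower dose and 204, 164, and 189 CPM at the higher dose, which is a log2 fold change of -0.02 (SE 0.042). For the adaptor genes IRS1 and IRS2 the values were -0.06 (SE 0.072) and 0.14 (SE 0.182), and the pairs disagreed in sign for both. Of 9 tested receptors, ligands, and adaptors, 0 reached an unadjusted p of 0.05 in either direction. Among 32 genes of the PI3K-AKT-mTOR pathway 1 was higher (RPS6, a ribosomal protein phosphorylated in this pathway, at 0.10) and 0 were lower, and among 22 kinases and regulators of the RAS-ERK pathway 1 was higher and 2 were lower. Those 2 were SPRY2 (-0.23, lower in 3 of 3 pairs), a feedback inhibitor of growth factor signaling, and MAP2K1 (-0.13), the kinase that activates ERK. The higher one was SPRED2 (0.18), another inhibitor of the pathway, with 34.9, 32.3, and 34.3 CPM at 1 ng/mL and 39.2, 37.1, and 38.2 CPM at 10 ng/mL, and with no overlap between the groups. Over all genes tested, 192 (1.45%) had no overlap with higher values at 10 ng/mL and 223 (1.68%) with lower values.

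**Figure D2:**
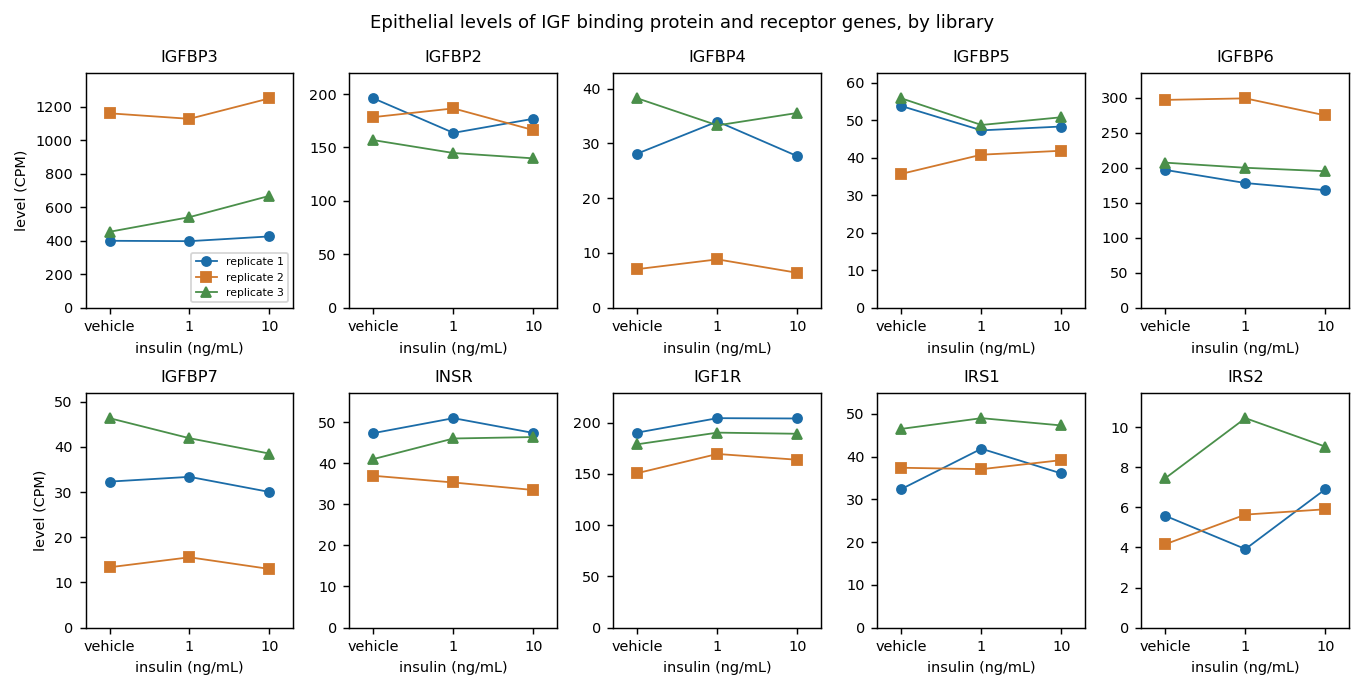
Levels (y axis, CPM from 0) of 6 IGF binding protein genes and 4 receptor and adaptor genes in each epithelial library by insulin dose (x axis), with a line for each replicate number. IGFBP3 is higher at 10 than at 1 ng/mL on all 3 lines, whereas the lines of IGF1R and INSR are nearly flat between the doses.

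Among the other higher genes, TXNIP (ENSBTAG00000020060) codes for a thioredoxin-binding protein that restrains glucose uptake and that glucose is known to induce. It had 33.4, 29.3, and 56.4 CPM at 1 ng/mL and 36.3, 39.3, and 70.3 CPM at 10 ng/mL. Levels were higher at 10 ng/mL in 3 of 3 pairs, although the groups overlapped, and the log2 fold change was 0.29 (SE 0.071, 95% interval 0.14 to 0.45, adjusted p 0.922 by edgeR). The vehicle libraries had 35.1, 45.7, and 74.5 CPM, which was above the 1 ng/mL level in each replicate, and the log2 fold change of 1 ng/mL over vehicle was -0.38. That comparison shares its 1 ng/mL libraries with this one. Without replicate 1 the log2 fold change of 10 over 1 ng/mL was 0.37 with an adjusted p of 0.00899 by edgeR. It was 0.24 without replicate 2 and 0.28 without replicate 3, and TXNIP was not called in either of these fits. EMP1, an epithelial membrane protein gene, had 106, 268, and 153 CPM and then 124, 290, and 171 CPM (log2 fold change 0.17). ESRP1, an epithelial splicing regulator, had 86.7, 73.8, and 69.5 CPM and then 93.5, 85.8, and 83.3 CPM (0.20). SLC34A2, a sodium phosphate cotransporter of secretory epithelia, had the largest log2 fold change of the 12 higher genes at 0.86 (SE 0.227), from low levels of 4.73, 0.455, and 1.81 CPM to 7.48, 0.927, and 4.07 CPM.

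The gene at the head of the lower protein-coding genes was TFRC (ENSBTAG00000032719), the transferrin receptor through which cells take up iron. It had 112, 172, and 189 CPM at 1 ng/mL and 70.8, 160.0, and 160.3 CPM at 10 ng/mL, and 138, 158, and 169 CPM with vehicle. The groups overlapped, and the pair of replicate 1 differed most. The log2 fold change was -0.30 (SE 0.074, 95% interval -0.46 to -0.14, adjusted p 0.922 by edgeR), and it was -0.16 without replicate 1, which was the smallest of the 3 values obtained by leaving out a replicate. MYDGF, a secreted factor gene, had 35.8, 40.4, and 34.6 CPM and then 31.6, 30.7, and 28.5 CPM, with no overlap and a log2 fold change of -0.28. COL15A1, a basement membrane collagen, had 78.7, 72.6, and 76.2 CPM and then 59.5, 65.9, and 69.0 CPM, again with no overlap (-0.22). TFPI2, a protease inhibitor of the extracellular matrix (-0.22), GSN, which severs actin filaments (-0.14), EPPK1, a keratin-binding linker protein (-0.14), and TMEM50A (-0.22) were lower by similar amounts. They were lower in 3 of 3 pairs, which their choice required. Counting all genes tested, 1455 (11.0%) were higher and 1947 (14.7%) were lower at 10 ng/mL in 3 of 3 pairs. The vehicle mean lay between the means of the doses for 7 of the 12 higher genes and for 11 of the 12 lower genes. Because these genes were chosen for their difference between the doses, the count cannot show a dose pattern. The share over all genes was not obtained.

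**Figure D3:**
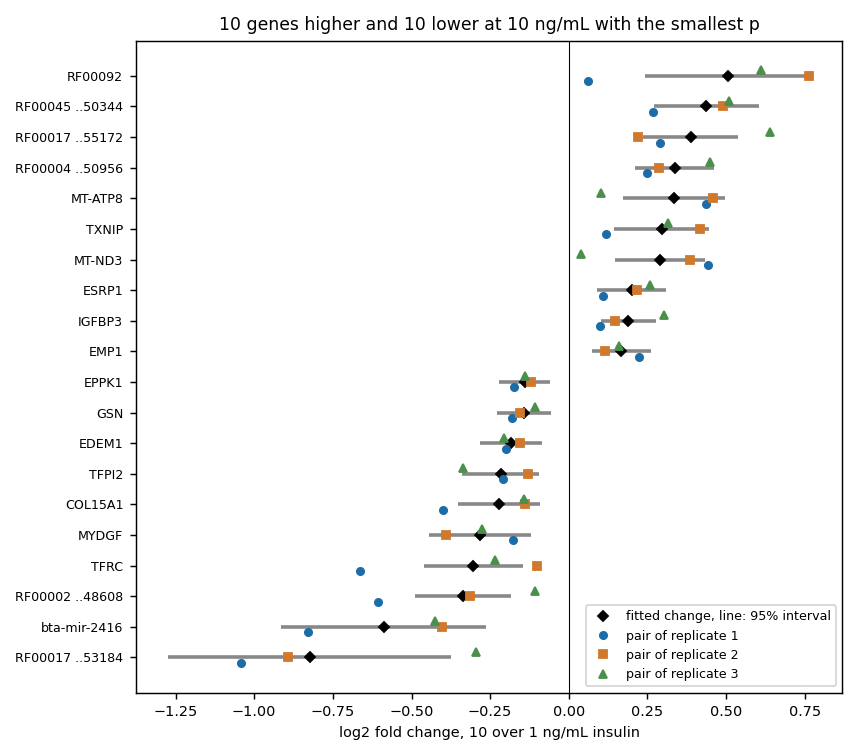
Log2 fold change of 10 over 1 ng/mL of insulin (x axis) for the first 10 higher and the first 10 lower genes with a symbol, by the smallest p and with the same direction in 3 of 3 pairs. Black diamonds are fitted changes with 95% intervals as gray lines, and colored symbols are the single pairs (log2 of CPM + 0.5). Most changes are within 0.5 of 0, and 0 of the 20 genes had an adjusted p under 0.05.

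Noncoding RNA genes took 4 places among the 12 higher genes and 3 among the 12 lower genes. Of all 13261 genes tested, 12739 were protein-coding. The share of noncoding genes among those eligible for the ranking was not obtained. A gene of the U2 small nuclear RNA family (ENSBTAG00000050956), part of the spliceosome, had the smallest p of all, with 43.1, 71.2, and 50.4 CPM at 1 ng/mL and 51.3, 86.9, and 68.9 CPM at 10 ng/mL and a log2 fold change of 0.34 (SE 0.059, adjusted p 0.263 by edgeR). A small nucleolar RNA gene (ENSBTAG00000050344) had 29.3, 22.2, and 31.6 CPM and then 35.4, 31.4, and 45.2 CPM (0.44). The family of the signal recognition particle RNA appeared on both sides, with 0.39 for ENSBTAG00000055172 and -0.82 for ENSBTAG00000053184. A ribosomal RNA gene (ENSBTAG00000048608) was lower by 0.61, 0.31, and 0.11 in pairs 1, 2, and 3 on the log2 scale, with a fitted log2 fold change of -0.34. These genes have near-identical copies in the genome, and because reads with a unique alignment were kept, the assignment of reads to 1 copy is uncertain. Of 23 small nuclear RNA genes tested, 3 were higher and 0 were lower at an unadjusted p under 0.05, with a median log2 fold change of 0.30, but the pair of replicate 1 had a median of -0.03. Of 81 small nucleolar RNA genes, 6 were higher and 0 were lower, with a median of 0.10 and pair medians of -0.07, 0.17, and 0.15. The precursor gene bta-mir-2416 had 10.3, 7.83, and 8.18 CPM at 1 ng/mL and 5.55, 5.79, and 5.96 CPM at 10 ng/mL, and the groups did not overlap.

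The 13 protein genes of the mitochondrial genome, which code for subunits of the respiratory chain and the ATP synthase, were the list with the largest share of small p-values. Of these 13, 8 were higher and 0 were lower at an unadjusted p under 0.05, and the median log2 fold change was 0.10. MT-ND3 had 74.9, 103, and 103 CPM at 1 ng/mL and 102, 134, and 106 CPM at 10 ng/mL (log2 fold change 0.29, SE 0.067). MT-ATP8 had 35.3, 41.1, and 45.9 CPM and then 47.9, 56.5, and 49.4 CPM (0.33, SE 0.076), and its groups did not overlap. MT-ATP8 shares part of its sequence with MT-ATP6 (0.06), so reads there cannot be told apart. The difference was carried by replicates 1 and 2, whose pairs had medians of 0.14 and 0.17 over the list, whereas the pair of replicate 3 had -0.03. Transcripts of 1 mitochondrial genome are made together, so the 13 genes are not independent. Without replicate 3, MT-ND3 (0.42), MT-ND2 (0.27), MT-ATP8 (0.46), and ND5 (0.20) were called. COX1, the cytochrome oxidase subunit gene, had a log2 fold change of -0.01. Of 42 nuclear genes of the same complexes 0 were higher, and their median was -0.02.

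Stress response genes of the endoplasmic reticulum went in both directions. From 31 genes of the ATF4 and unfolded protein response, 3 were higher and 5 were lower at an unadjusted p under 0.05, and the median was 0.01. Among the 5 were the chaperones and folding factors PDIA4 (-0.17), MANF (-0.19), and HSP90B1 (-0.11), each in 3 of 3 pairs. PDIA4 had 228, 211, and 184 CPM at 1 ng/mL and 221, 173, and 161 CPM at 10 ng/mL, and without replicate 1 it was called with a log2 fold change of -0.23, compared with -0.11 without replicate 2. EDEM1, which sends misfolded glycoproteins to degradation and was not on the list, had 128, 138, and 119 CPM and then 112, 124, and 103 CPM, with log2 differences of -0.20, -0.16, and -0.21 in the 3 pairs. PSAT1, an enzyme of serine synthesis that ATF4 induces, went the other way at 0.15. Heat shock and chaperone genes of the cytosol and mitochondria had 2 of 17 higher, DNAJB4 (0.23) and HSPA9 (0.09), and 0 lower.

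Transcription factors of the immediate early class varied from pair to pair. CEBPB (ENSBTAG00000051972), a factor induced by hormones and cytokines and needed for decidualization in rodents, had 11.7, 8.10, and 26.3 CPM at 1 ng/mL and 30.4, 19.6, and 20.4 CPM at 10 ng/mL. It was higher in the pairs of replicates 1 and 2, by 1.34 and 1.22, and lower in the pair of replicate 3, at -0.36, which gave a log2 fold change of 0.63 (SE 0.234). CEBPD behaved alike, with 0.63, 0.47, and -0.26 in the 3 pairs. Without replicate 3 both were called, with log2 fold changes of 1.34 for CEBPB and 0.57 for CEBPD, whereas CEBPB was at 0.27 without replicate 1. NR4A2, an orphan nuclear receptor gene, had 12.3, 11.6, and 18.1 CPM and then 9.63, 11.1, and 9.43 CPM, which did not overlap (-0.47, SE 0.150). Without replicate 3 its log2 fold change was -0.19. Its relative NR4A1 had 30.1, 10.2, and 79.6 CPM and then 29.0, 11.7, and 38.4 CPM, so its log2 fold change of -0.50 came from replicate 3, and without that replicate it was 0.04. Without replicate 1 NR4A1 was called, at -0.73. FOS was lower in 3 of 3 pairs by a small amount (-0.10). Over the 25 tested immediate early genes, 1 was higher and 3 were lower, with a median of -0.05.

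**Figure D4:**
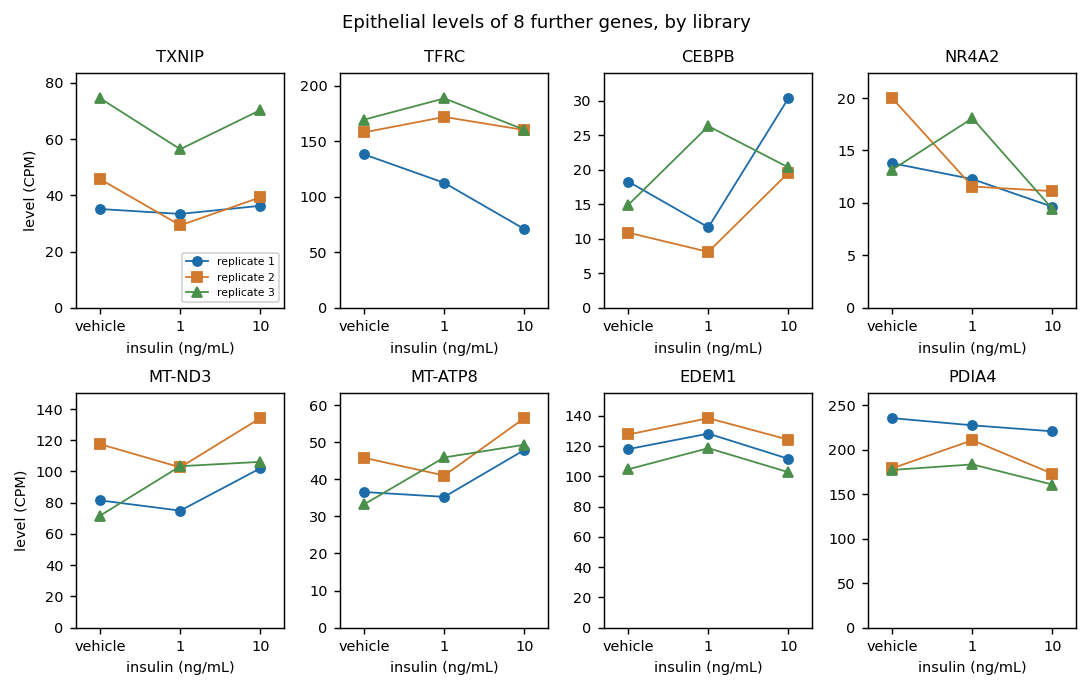
Levels (y axis, CPM from 0) of TXNIP, TFRC, CEBPB, NR4A2, MT-ND3, MT-ATP8, EDEM1, and PDIA4 in each epithelial library by insulin dose (x axis), with a line for each replicate number. EDEM1 shows the same small step down from 1 to 10 ng/mL on all 3 lines, whereas CEBPB is higher at 10 ng/mL on the lines of replicates 1 and 2 and lower on that of replicate 3.

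Metabolic genes that insulin is known to control in liver and fat had small differences. Most were toward lower levels in the lists of glycolysis, fatty acid synthesis, and sterol synthesis. Of 28 genes of glycolysis and pyruvate metabolism, 0 were higher and 3 were lower at an unadjusted p under 0.05, with a median log2 fold change of -0.05. The 3 were the phosphofructokinase PFKL (-0.13), PFKFB2 (-0.16), which makes an activator of that enzyme, and PGK1 (-0.07), each lower in 3 of 3 pairs. PFKL had 405, 433, and 365 CPM and then 393, 374, and 328 CPM. For fatty acid synthesis 0 of 21 were higher and 2 were lower, namely SREBF1, the lipogenic transcription factor (-0.12), and LPIN1, a phosphatidate phosphatase (-0.21). The fatty acid synthase gene FASN had -0.10 (SE 0.048) with the pairs in different directions. The 26 genes of sterol synthesis and uptake had a median of -0.06. In pairs 1, 2, and 3 the medians were -0.09, 0.08, and -0.13 for this list and -0.05, 0.03, and -0.18 for fatty acid synthesis. For glycolysis and pyruvate metabolism they were -0.04, -0.08, and -0.05. Of 8 glucose transporters tested, 5 had a log2 fold change above 0. The glucose transporter SLC2A1 had -0.04 (SE 0.045), and the 1 transporter under an unadjusted p of 0.05 was SLC2A6 (-0.23). Among 25 FOXO factors and targets that insulin represses elsewhere, 2 were higher and 1 was lower, and FOXO3 had 0.14. None of 38 cell cycle genes reached an unadjusted p under 0.05 in edgeR's test, and their median was -0.05.

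Matrix genes were lower more often than higher. Of 37 collagens and matrix genes, 0 were higher and 8 were lower at an unadjusted p under 0.05, 12 were lower and 0 were higher in 3 of 3 pairs, and the median log2 fold change was -0.08. The fibronectin gene FN1 had 29264, 32462, and 19675 CPM at 1 ng/mL and 28175, 30632, and 17984 CPM at 10 ng/mL, and it was lower in 3 of 3 pairs (-0.08, SE 0.027). THBS1, a matrix glycoprotein gene (-0.09), PLOD2, which hydroxylates collagen lysines (-0.13), and COL4A2, a basement membrane collagen (-0.15), were also lower in 3 of 3 pairs. Of 28 stromal marker genes tested, 0 were higher and 5 were lower at an unadjusted p under 0.05, and the median was -0.09. Among the 28, 8 had a log2 fold change above 0, and 5 were lower and 0 were higher in 3 of 3 pairs. The stromal marker medians were -0.27, 0.06, and -0.00442 in pairs 1, 2, and 3, and the matrix medians were -0.15, -0.00675, and -0.03. Without replicate 1 the median was 0.02 for the stromal markers and -0.01 for the matrix genes. LUM (-0.21) and MXRA5 (-0.19), which are on the stromal marker list, were lower in 3 of 3 pairs. In bulk libraries fewer stromal cells and less RNA per cell cannot be told apart, and the part of the stromal markers in the matrix values was not tested.

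Interferon-stimulated genes, which the endometrium is known to raise in response to interferon tau from the ruminant conceptus, had the highest median of the 34 lists at 0.14, but the pairs disagreed. Their median was 0.14 in pair 1, -0.21 in pair 2, and 0.46 in pair 3. MX2, an antiviral GTPase, had 1.51, 16.9, and 3.61 CPM at 1 ng/mL and 7.14, 12.1, and 22.5 CPM at 10 ng/mL. The groups overlapped, and the log2 fold change was 1.02 (SE 0.387). OAS1X, which belongs to the oligoadenylate synthetases, had 14.8, 10.3, and 21.1 CPM and then 16.3, 7.18, and 56.1 CPM (0.66), so its higher mean came from replicate 3. It was called without replicate 1 (0.89), whereas the value was -0.11 without replicate 3. MX2 was called without replicate 1 (0.82) and without replicate 2 (2.53), and without replicate 3 it was not called, at 0.16. The vehicle libraries of MX2 had 7.06, 15.2, and 11.1 CPM, above the 1 ng/mL level in replicates 1 and 3 and below it in replicate 2. Those of OAS1X had 19.2, 11.6, and 52.6 CPM, above the 1 ng/mL level in each replicate. For MX2, OAS1X, OAS1Z, and IFI6 the log2 fold changes of 1 ng/mL over vehicle were -0.64, -0.77, -0.57, and -0.37. Those of 10 ng/mL over vehicle were 0.35, -0.10, 0.02, and -0.05. These comparisons share their dose libraries with the one between the doses. Of 39 tested genes, 4 were higher (MX2, OAS1X, OAS1Z, and IFI6) and 0 were lower at an unadjusted p under 0.05.

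**Figure D5:**
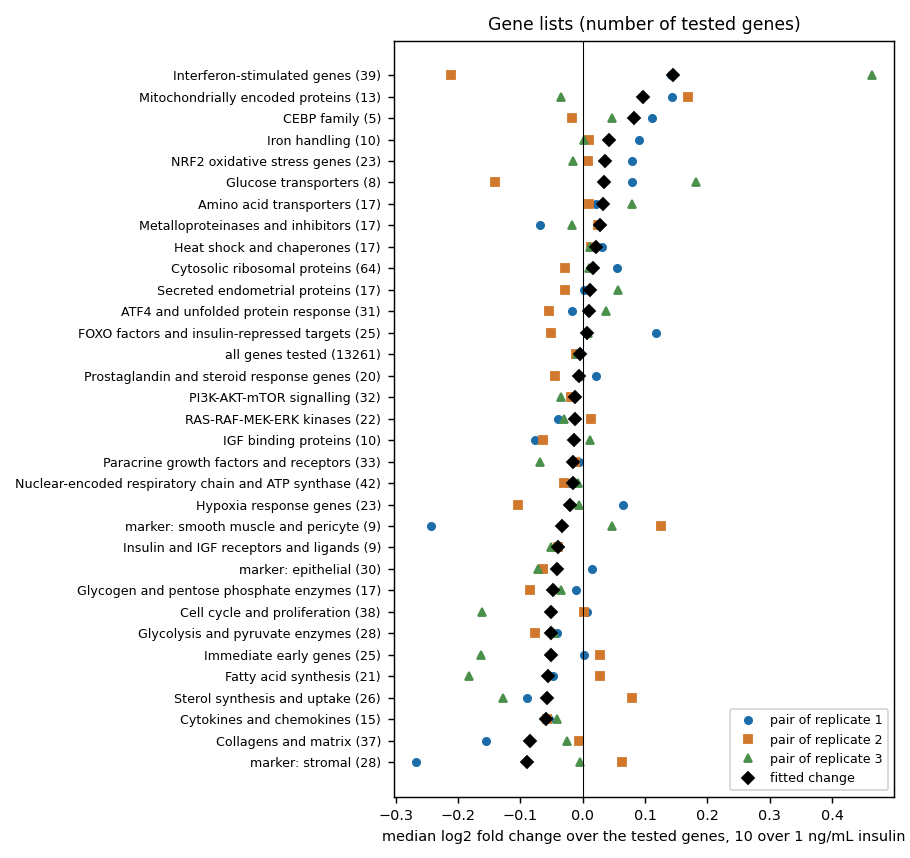
Median log2 fold change of 10 over 1 ng/mL of insulin (x axis) over the tested genes of each list, with the number of tested genes in brackets. The endothelial and immune marker lists, with 2 and 3 tested genes, are left out. Black diamonds are medians of the fitted changes and colored symbols are medians in single pairs. The medians lie between -0.09 and 0.14, and for interferon-stimulated genes the 3 pairs range from -0.21 to 0.46.

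Hormone receptors and secreted products of the epithelium differed little between the doses. PGR, the progesterone receptor gene, had 10.8, 7.46, and 9.70 CPM at 1 ng/mL and 11.7, 7.53, and 10.9 CPM at 10 ng/mL (0.11, SE 0.126). ESR1, for estrogen receptor alpha, had 71.1, 74.7, and 61.6 CPM and then 66.2, 72.0, and 69.4 CPM (0.01, SE 0.060). Of 20 prostaglandin and steroid response genes, 1 was higher and 2 were lower. The higher one was the prostaglandin transporter SLCO2A1 (0.28), and the lower ones were the cyclooxygenase gene PTGS2 (-0.18) and the phospholipase PLA2G4A (-0.14), which supplies its substrate. PTGS2 had 79.2, 211, and 151 CPM and then 84.2, 187, and 114 CPM, and was called without replicate 1 at -0.28, whereas it was -0.06 without replicate 3. Among 17 secreted endometrial proteins, the complement factor gene CFB was higher (0.12), and PLAU, the urokinase (-0.12), and SPP1, osteopontin (-0.13), were lower. The cytoskeletal genes KRT18 and VIM had log2 fold changes of 0.01 and -0.09.

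The change from 1 to 10 ng/mL was then tested against that in stromal cells. Of 14202 genes, 105 (0.739%) had a different change in the 2 cell types by edgeR's quasi-likelihood test of the interaction, with 9 more positive and 96 more negative in epithelial cells, and 965 (6.79%) did so at an unadjusted p under 0.05. Of the 105, 90.5% were at least 4-fold higher in epithelial than in stromal cells, compared with 11.8% of all genes tested, and the stromal library of replicate 1 at 10 ng/mL held 406 CPM of summed epithelial markers, against 50.5 to 84.2 CPM in the other 5 stromal libraries of these doses. Without replicate 1, 63 genes differed, with 34 more positive and 29 more negative. IGFBP5 differed by -0.86 (SE 0.120, adjusted p 0.00179). In stromal cells it had 7.82, 41.1, and 12.1 CPM at 1 ng/mL and 19.0, 73.7, and 19.6 CPM at 10 ng/mL, and it was higher there by 0.90 (SE 0.104, adjusted p 0.00915), 1 of 16 genes called in stromal cells (0.122% of 13114). The difference was -0.75 (adjusted p 0.000245) without replicate 1 and -0.92 (adjusted p 0.067) without replicate 2. For IGFBP3 the difference was 0.25 (SE 0.101, adjusted p 0.583), and it thus did not pass.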

How the data were processed

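Gene expression was measured by RNA sequencing. According to the methods of the study, the authors made stranded NuGEN libraries and sequenced them single-end on a NextSeq, and the steps were trimming (Cutadapt), quality filtering (fastq_quality_filter), and alignment with Rsubread against the Ensembl cow genome, with unique alignments kept. The deposited values were whole-number gene counts from featureCounts, not normalized, with the strand setting not given in the sources used here. The deposited DESeq2 tables (means, fold changes, and p-values of the authors) were used for gene names and types only, and the glucose libraries were not analyzed.

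Groups and replicate numbers were taken from the labels. Counts of the 6 libraries were fitted in edgeR 4.0.16 (R 4.3.3) with TMM factors, filterByExpr, the replicate number as a block, and glmQLFTest, and p-values were adjusted by Benjamini-Hochberg over all 13261 genes. The pairing comes from the paired sample design in the methods, and deviations from the group means correlated by 0.763, 0.826, and 0.837 between libraries of the same number. A gene was called at an adjusted p under 0.05 and a log2 fold change beyond 0.1. The difference between cell types was an interaction term with the replicate number within cell type as a block. Levels are CPM with TMM factors over the 9 libraries of a cell type, and single pairs are log2 of CPM + 0.5. Each total was 8826470 to 11388528 counts. DESeq2 1.42.0, other scaling, no filter, no block, all 9 libraries, protein-coding genes only, and leaving out each replicate were tried as alternatives, and the scripts were tested on simulated counts. Named genes were the 12 higher and 12 lower genes with a symbol, the smallest p, 3 of 3 pairs in the same direction, and a mean of 1 CPM or more; the IGFBPs, IGF1R, INSR, IRS1, IRS2, PGR, ESR1, CEBPB, NR4A2, KRT18, and VIM; and up to 4 genes with the smallest p in each of 34 lists. A few genes that this rule names are not reported here, and other genes named were chosen after their values were seen. The comparison, gene lists, and tests were chosen with earlier results of these data known.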

Additional observations from a re-analysis of the deposited data

Results flagged for a closer look

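The change between 1 and 10 ng/mL of insulin differed between epithelial and stromal cells for 9 of 90 named genes in edgeR's interaction test. These 90 were the ranked genes, the genes always named, and list genes with an unadjusted p under 0.05 in the epithelial comparison. Each value is the log2 change in epithelial cells minus that in stromal cells. The U2 small nuclear RNA gene ENSBTAG00000050956 (0.769, adjusted p 0.0255), the small nucleolar RNA genes ENSBTAG00000050344 (0.853, adjusted p 0.02) and ENSBTAG00000042475 (1.21, adjusted p 0.0489), and EMP1 (0.363, adjusted p 0.017) had log2 fold changes above 0 in epithelial cells and below 0 in stromal cells. EMP1 had 380, 335, and 415 CPM in stromal replicates 1, 2, and 3 at 1 ng/mL and 322, 299, and 364 CPM at 10 ng/mL. All 4 differences passed without replicate 1 and had adjusted p-values of 0.122 to 0.409 without replicates 2 or 3.

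IGFBP5 differed by -0.861, with nearly equal epithelial levels (45.6 and 47.0 CPM on average) and stromal means of 20.3 CPM at 1 ng/mL and 37.5 CPM at 10 ng/mL.

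The epithelial genes KRT18 (-3.84), ST14 (-5.66), CFB (-3.39), and ESRP1 (-4.23) were near 0 in most stromal libraries. In the stromal library of replicate 1 at 10 ng/mL they had 15.2, 9.47, 17.9, and 2.71 CPM, whereas the other 5 stromal libraries at 1 or 10 ng/mL had at most 1.28, 0.788, 2.17, and 0.0823 CPM. Without replicate 1 the differences were -1.49, -2.23, and -0.70 for KRT18, ST14, and CFB and 2.41 for ESRP1, with adjusted p-values of 0.567 to 0.892. The summed epithelial markers of that stromal library were 3.70% of the median sum in the epithelial libraries. It was not the only such library, since stromal vehicle replicate 2, which entered no test here, held 487 CPM of these markers before TMM scaling, against 431 CPM in the library of replicate 1 at 10 ng/mL.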

How the results depend on the processing

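The count of 0 genes in the epithelial comparison was also obtained with DESeq2 size factors, with DESeq2, with all 9 epithelial libraries (smallest adjusted p 0.076), and with protein-coding genes only. It was 30 with no low-count filter (20 higher and 10 lower) and 5 to 32 when a replicate number was left out, and the cause was not tested. Without the replicate block it stayed at 0, but 30 genes in place of 593 had an unadjusted p under 0.05, and with or without the pairing no named gene was called in epithelial cells. For the difference between cell types, 105 genes became 321 with no filter, 52 with DESeq2, 0 without the replicate block, and 63 to 129 when a replicate number was left out. Of the same 90 named genes, 72 to 90 stayed on the same side of the threshold with the same sign, depending on the alternative. Signs turned in 9, all by leaving out a replicate: IGFBP2 (-0.102 to 0.0394), IRS1 (-0.118 to 0.0165), KRT18 (-0.0780 to 0.0970), ESR1 (-0.0702 to 0.0648), IRS2 (-0.10 to 0.43), IGF1R (-0.0207 to 0.00245), NR4A1 (-0.73 to 0.0358), OAS1X (-0.11 to 0.95), and OAS1Z (-0.0235 to 1.02). None of the 8 alternatives fitted to these genes moved the median of all genes by more than 0.00460 on the log2 scale.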

Other observations

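The interferon-stimulated genes IFIT1 and ISG15, chosen after their values were seen, were called without replicate 2, with log2 fold changes of 0.94 and 1.37. With 3 pairs the values were 0.40 and 0.58, and both genes were higher at 10 ng/mL in 2 of 3 pairs. PFKFB3, which makes an activator of glycolysis and was chosen in the same way, was called without replicate 1 at -0.31, compared with -0.13 in all 3 pairs.

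MT2A, a zinc-binding metallothionein gene, had 10.6, 7.10, and 18.9 CPM at 1 ng/mL and 14.4, 6.84, and 29.9 CPM at 10 ng/mL (log2 fold change 0.45, SE 0.125, not called), so the pair of replicate 2 went the other way. FTL, the ferritin light chain gene, had 73.2, 59.7, and 71.5 CPM and then 91.7, 63.5, and 72.5 CPM, with a log2 fold change of 0.15 that was largest in replicate 1, the same replicate in which TFRC was most reduced at 10 ng/mL (-0.66 in that pair). Of the 10 tested iron handling genes, 1 was higher and 1 was lower at an unadjusted p under 0.05, and the median was 0.04.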
